A study of Mus musculus with 8 samples.

Results

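The 9 genes described here carry cholesterol into the cell and the mitochondrion, turn it into progesterone, and take progesterone away: Scarb1, Star, Cyp11a1, Fdx1, Fdxr, Hsd3b1, Por, Akr1c18 and Srd5a1. They were chosen by name, as the rows of these symbols among the 35087 named gene rows measured in each of 8 libraries. All 9 were found in each library. Cells make progesterone from cholesterol in short steps. Cholesterol is taken up from lipoproteins, moved to the inner mitochondrial membrane, cleaved to pregnenolone by a cytochrome P450 that receives electrons through an iron-sulphur protein, and then oxidised to progesterone. In the ovary, theca cells carry out the early steps in growing follicles, and granulosa cells gain the full pathway as they turn into luteal cells after ovulation. Reductases of the 5-alpha and 20-alpha positions convert progesterone to weaker products.

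The libraries were made from granulosa cells, the cells that surround the oocyte, cut by laser from sections of mouse ovary, and their polyadenylated RNA was amplified with Smart-seq2. The 2 libraries of the conditional knockout (cKO) came from Hif1aflox/flox females that also carried Foxl2-CreERT2, a Cre recombinase that acts once tamoxifen is present and is driven by Foxl2, a gene of granulosa cells. The 6 control libraries (WT) came from Hif1aflox/flox females, so they had the same floxed alleles, and they had no Cre. Both groups were injected with tamoxifen, 100 mg/kg a day over 5 days, when they had reached 3 weeks, and the tissue was collected 7 days after the final injection. Effects of the Cre itself and of Hif1a loss cannot be told apart with these groups. The genotype label calls the first group a knockdown. The library names of all 8 samples start with cKO, including those titled WT, and the groups used here follow the titles. The stage of the follicles and the animal behind each library are not given in the sources used here, so p-values measure only the spread between these libraries, some of which may share an animal.

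Hif1a, the floxed gene, had 22.3 and 13.7 CPM in cKO 1 and 2 and from 35.5 to 106.2 CPM, median 59.7, in WT. The groups did not overlap, and the log2 fold change, cKO against WT, was -1.84 ± 0.58 (SE) with an edgeR adjusted p of 0.369. The sources used here do not say which exon is floxed, so reads from outside it may be included. Here CPM is the normalised read count, scaled to the library's total and by TMM, p is from edgeR's quasi-likelihood test, and adjustment is Benjamini-Hochberg over the 15102 genes tested. Depth ran from 651426 reads in cKO 2 to 4719293 in WT 4. The cKO libraries had 12847 and 12120 genes with at least 5 reads, below the 13597 to 14727 of WT, and 8.87% and 10.5% of their reads came from the mitochondrial genome, above the 1.42% to 3.65% of WT. All 14 granulosa markers had reads in each library except WT 3, in which 1 (Gatm) had none. Their summed share was 0.689% and 0.304% of reads in cKO and 0.603% to 6.34% in WT (exact two-sided permutation p = 0.179, with 0.0357 the smallest p possible for 2 against 6 libraries). The part of depth, mitochondrial share, detected genes and granulosa marker share in the results that follow was not tested beyond the alternatives named there. In RNA from pooled cells, fewer cells of a type and less RNA per cell cannot be told apart.

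Of the 9 genes, 8 had enough reads for the test, and none passed an adjusted p of 0.05. That is the background as well, since edgeR called 0 of 15102 genes (0%). At an unadjusted p under 0.05, 1 of the 8 genes was lower in cKO (Hsd3b1) and 0 were higher, beside 8.89% of all genes lower and 3.4% higher. The groups did not overlap for 1 of the 8 (Srd5a1, lower in cKO), beside 6.41% of all genes that lay lower without overlap and 6.02% that lay higher. DESeq2, which called 274 of 6881 genes (3.98%), 3.53% as lower, gave an adjusted p for 6 of the 8 and called 0. It put Hsd3b1 and Fdx1 under an unadjusted p of 0.05, beside 2209 of the 15102 genes. By fold change, 5 were lower in cKO and 3 higher. Their median was -0.84 on the log2 scale, beside -0.08 for all genes tested. It was -0.04 when only the libraries numbered 1 and 2 in each group were compared and -0.07 with the replicate number as a block. WT 1 and 2 were known from earlier results to stand apart from WT 3 to 6 in granulosa genes, Hsd3b1 among them, so the smaller values given here for the libraries numbered 1 and 2 follow in part from that choice and are no independent check. The 3 higher values belonged to Star, Cyp11a1 and Fdxr.

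**Figure D1:**
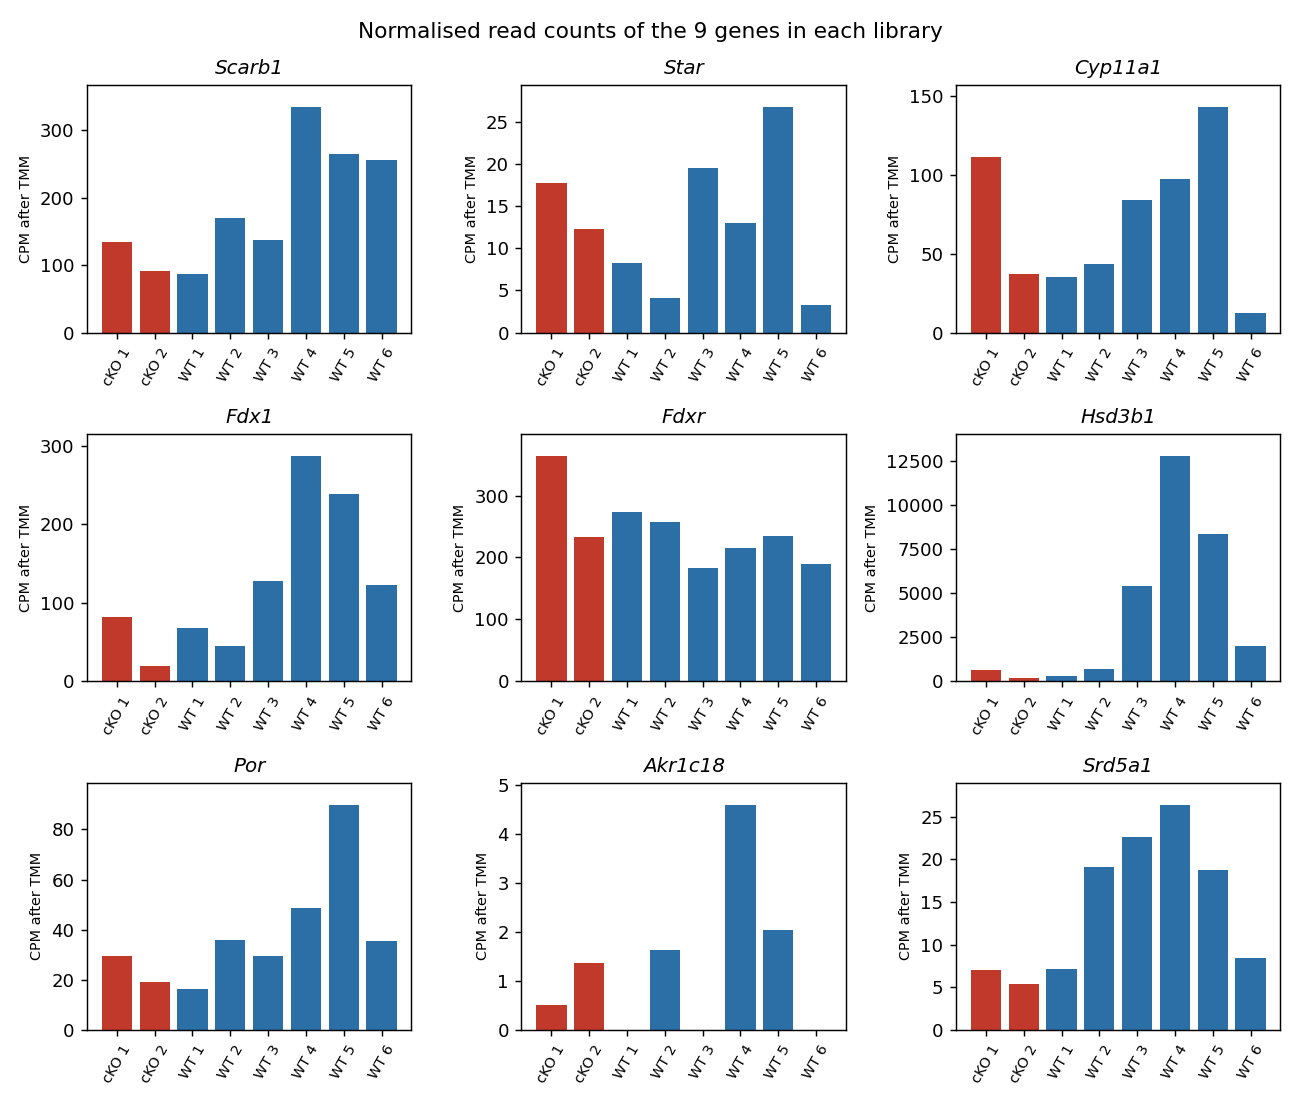
Normalised read counts (CPM after TMM, linear axes from 0) of the 9 genes, 1 bar per library, with cKO in red and WT in blue. Hsd3b1 spans 277 to 12761 CPM within WT, while Fdxr stays between 182.5 and 274 CPM.

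Scarb1 is the receptor that takes cholesterol esters from high-density lipoprotein, and lies on chromosome 5 from 125277087 to 125341094, minus strand (all gene positions are from GENCODE M21 on mm10). It had 135 and 91.5 CPM in cKO 1 and 2, and 86.8, 169, 137, 334, 265 and 256 CPM in WT 1 to 6. WT 1 lay below both cKO libraries and the other 5 WT libraries above both, so the groups overlapped. The log2 fold change was -0.87 ± 0.54 (SE), with an edgeR adjusted p of 0.514. It was -0.07 when only the libraries numbered 1 and 2 in each group were compared, and 0.26 when detected genes entered as a covariate. The groups share no range of detected genes, so that fit cannot separate group from covariate well. This limit holds for every value with that covariate given below.

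Star, the protein that moves cholesterol to the inner mitochondrial membrane and sets the pace of acute steroid output, lies on chromosome 8 from 25806555 to 25815982, plus strand. It had 17.8 and 12.3 CPM in cKO and 8.24, 4.10, 19.5, 13.1, 26.7 and 3.27 CPM in WT 1 to 6. These values rest on 44 reads in cKO and 267 in WT. Both cKO values fell inside the WT range, with 3 WT libraries below them and 2 above. On the log2 scale cKO exceeded WT by 0.28 ± 0.82, with an edgeR adjusted p of 0.908. The value depended on the library and on the length used: it was -0.08 without cKO 1, 1.35 in the libraries numbered 1 and 2, 1.67 with the deposited effective lengths as an offset, and 2.02 with detected genes as a covariate. The deposited length of Star was 4046 bases in 7 libraries and 823 in cKO 2, and on the TPM scale, which divides by length, cKO 2 at 10.1 stood above cKO 1 at 3.41 although its CPM was lower.

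Cyp11a1 encodes the mitochondrial P450 that cleaves the cholesterol side chain, the committed step, and lies on chromosome 9 from 58006411 to 58027023, plus strand. It had 111.6 and 36.9 CPM in cKO and 35.2, 43.7, 83.8, 97.4, 142.9 and 12.7 CPM in WT 1 to 6, an 11.3-fold range within WT. The cKO libraries fell inside that range. The log2 fold change was 0.12 ± 0.71, with an edgeR adjusted p of 0.958. Its sign turned with single libraries, to -0.97 without cKO 1, -0.01 without WT 1 and -0.04 without WT 6, and it was -0.04 with the effective length offset, 0.98 in the libraries numbered 1 and 2, and 2.28 with detected genes as a covariate.

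Star and Cyp11a1 were ordered over the libraries much like Cyp17a1, the androgen-forming enzyme that marks theca cells; this gene was picked after its values were seen. Cyp17a1 had 81.7 and 13.7 CPM in cKO and 7.69, 10.1, 46.0, 81.5, 170.7 and 0 CPM in WT 1 to 6. The 4 libraries highest in Cyp17a1, which were WT 5, cKO 1, WT 4 and WT 3, were also the 4 highest in Cyp11a1 and in Star. WT 6 was lowest in all 3. Insl3, another theca gene and likewise picked after its values were seen, had 3.55 and 1.37 CPM in cKO and 3.30, 6.29, 4.29, 8.22, 6.57 and 0 CPM in WT 1 to 6. It too had no read in WT 6, but cKO 1 was not among its 4 highest libraries and WT 2 was. In WT 6 no read allows up to 3 reads, which is 0.655 CPM. The summed share of the 8 theca markers was 0.0290% and 0.0166% in cKO and 0.0164% to 0.0723% in WT (exact two-sided permutation p = 0.643), and 4 of the 8 had no read in WT 6. The part of theca RNA in the Star and Cyp11a1 values was not tested.

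**Figure D2:**
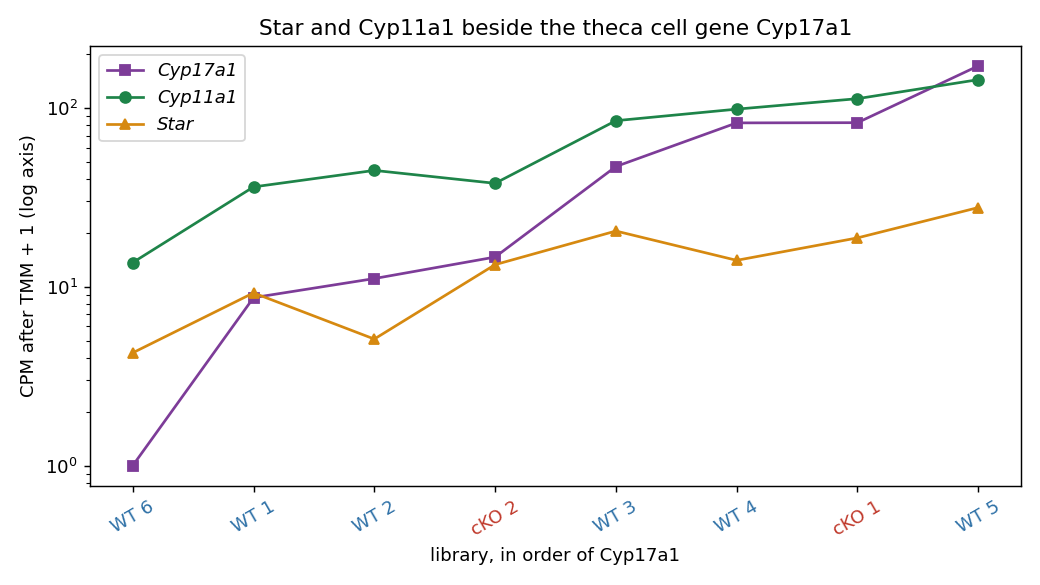
Star, Cyp11a1 and Cyp17a1 in the 8 libraries, as CPM after TMM plus 1 on a log axis, with libraries in order of Cyp17a1 (cKO in red, WT in blue) and lines joining the values of a gene. WT 6, at the left, is lowest for all 3 genes, and WT 5, at the right, is highest.

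Fdx1, the ferredoxin that hands electrons to the side-chain cleavage enzyme, and Fdxr, the reductase that loads it from NADPH, had fold changes of opposite sign, neither past the threshold. Fdx1 lies on chromosome 9 from 51943306 to 51963556, minus strand. It had 82.2 and 19.1 CPM in cKO and 67.6, 45.7, 127.5, 287, 239 and 123 CPM in WT 1 to 6, with means of 50.7 ± 44.6 (SD, n = 2) and 148 ± 95.4 (SD, n = 6). WT 3 to 6 were above both cKO libraries and WT 1 and 2 lay between them. The log2 fold change was -1.52 ± 0.75, with an edgeR adjusted p of 0.427 and a DESeq2 adjusted p of 0.185. It was -3.02 without cKO 1, -0.94 without cKO 2, -0.11 in the libraries numbered 1 and 2, and 1.01 with detected genes as a covariate.

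Fdxr lies on chromosome 11 from 115268024 to 115277050, minus strand. It had 363 and 234 CPM in cKO and 274, 258, 182.5, 215, 235 and 189 CPM in WT 1 to 6. Its WT libraries had a coefficient of variation of 16.3%, and a highest to lowest ratio of 1.5, the narrowest of the 8 genes tested, beside a median WT range of 4.06-fold over all genes on the CPM + 1 scale. cKO 1 was above all WT libraries and cKO 2 was inside their range. The fitted difference was 0.41 ± 0.40 on the log2 scale, with an edgeR adjusted p of 0.681. It was -0.01 without cKO 1, and 0.78 with limma on log2(TPM + 1).

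The ratio of Fdx1 to Fdxr, taken from CPM, was 0.226 and 0.0819 in cKO and 0.247, 0.177, 0.699, 1.33, 1.02 and 0.650 in WT 1 to 6. WT 2 lay between the cKO libraries, and WT 3 to 6 were well above both. This ratio was computed after the values of both genes had been seen, and has no test.

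Hsd3b1, the 3-beta-hydroxysteroid dehydrogenase that turns pregnenolone into progesterone, had by far the most reads of the 9 genes when all libraries are summed. In cKO 2 Fdxr had more (171 reads against 148), and in WT 1 nearly as many (498 against 504). Hsd3b1 lies on chromosome 3 from 98852194 to 98859794, minus strand. It had 616 and 202 CPM in cKO and 277, 684, 5428, 12761, 8335 and 2026 CPM in WT 1 to 6, with means of 409 ± 293 (SD, n = 2) and 4919 ± 4925 (SD, n = 6). WT 1 lay between the cKO libraries, WT 2 was just above them, and WT 3 to 6 were several times higher, so the WT libraries alone spanned 46.1-fold. The log2 fold change was -3.58 ± 1.38, with an unadjusted p of 0.0216, an edgeR adjusted p of 0.374 and a DESeq2 adjusted p of 0.0846. With no filter on low counts, edgeR's adjusted p was 0.0125 at a log2 fold change of -3.69. In the libraries numbered 1 and 2, which include the WT libraries lowest in Hsd3b1, the log2 fold change was -0.14 by that choice. With detected genes as a covariate it was -0.69. The granulosa marker share moved with Hsd3b1: it was 2.73%, 6.34%, 4.60% and 2.75% in WT 3 to 6, and 0.603% and 1.03% in WT 1 and 2. A large part of the share in WT 4 was Inha, the inhibin alpha subunit, with 176296 of 4719293 reads, against 2511 of 1594803 in WT 1. Amh, also in that marker list and picked after its values were seen, went the other way. It had 767 and 1126 CPM in WT 1 and 2 and 2.34 to 176 CPM in WT 3 to 6. The share is therefore no plain measure of granulosa cell content. The part of this marker share in the Hsd3b1 values was not tested.

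**Figure D3:**
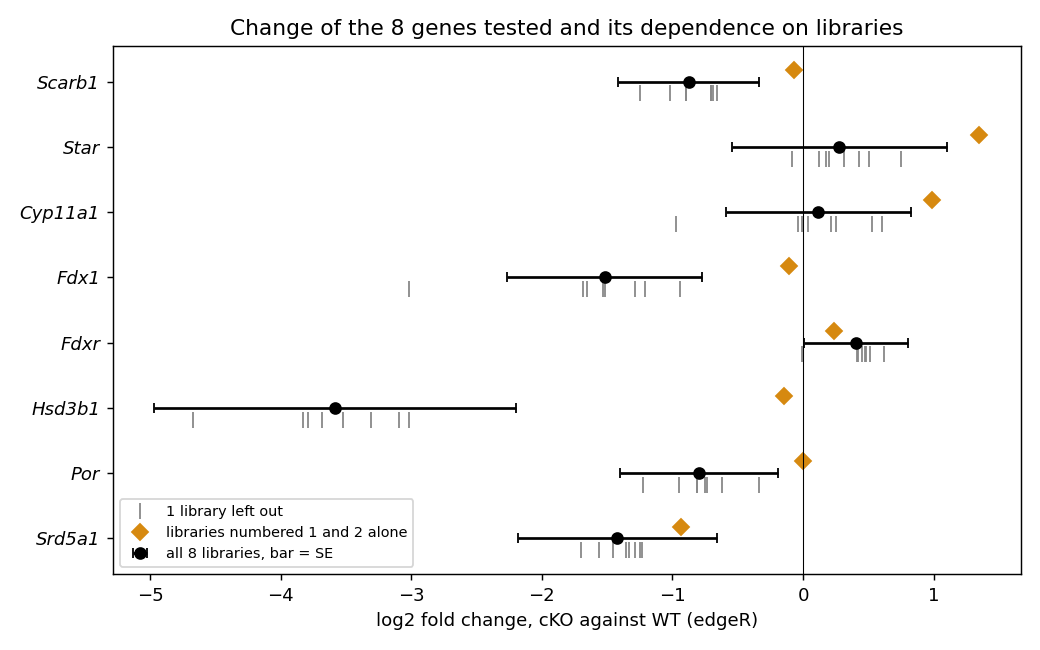
Log2 fold change, cKO against WT, of the 8 genes tested (black points with SE from edgeR), with the values after leaving out each library (grey ticks) and in the libraries numbered 1 and 2 alone (orange diamonds). Hsd3b1 is at -3.58 with all libraries and at -0.14 in the libraries numbered 1 and 2, which include the WT libraries with the least Hsd3b1.

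Paralogs of Hsd3b1 lie beside it on chromosome 3, and the opening coding sequences show how they differ. The first 60 coding bases in GENCODE M21 of Hsd3b1 and of the 2 paralogs with the most reads are given here, 5′ to 3′. Capitals in Hsd3b1 mark bases at which either paralog differs, and capitals in the paralogs mark differences from Hsd3b1.
Hsd3b1: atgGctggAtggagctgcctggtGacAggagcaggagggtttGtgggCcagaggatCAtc
Hsd3b6: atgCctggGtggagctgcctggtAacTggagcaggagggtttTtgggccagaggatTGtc
Hsd3b2: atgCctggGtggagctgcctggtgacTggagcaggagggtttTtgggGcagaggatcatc
In this stretch Hsd3b6 differed from Hsd3b1 at 7 bases and Hsd3b2 at 5. Over the whole coding sequence of 1122 bases, Hsd3b6 was 90.0% and Hsd3b2 and Hsd3b3 were 89.3% identical to Hsd3b1, and Hsd3b4 and Hsd3b5 were 82.7% and 82.0% identical. Of the 31-base words of the Hsd3b1 transcripts, 13.0% occur in another gene, 5.78% in Hsd3b6. Hsd3b1 took 99.3% and 93.1% of all reads assigned to the family in cKO and 96.6% to 99.95% in WT. Hsd3b6 had 7 reads in cKO and 59 in WT, and Hsd3b2 had 12 and 42. How the authors' counting split reads between these paralogs could change these small values.

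Set against Cyp11a1, the gene of the step before it, Hsd3b1 had its 2 lowest ratios in the cKO libraries. The ratio of Hsd3b1 to Cyp11a1, from CPM, was 5.52 and 5.48 in cKO and 7.88, 15.6, 64.7, 131, 58.3 and 160 in WT 1 to 6. The 2 cKO values were close to each other and below all WT values, with WT 1 nearest. Some rest on few reads: Cyp11a1 had 27 in cKO 2 and 64 in WT 1, and Hsd3b1 had 148 and 504. Counting error of the ratios was not computed, so neither the closeness nor the gap to WT 1 can be judged. Cyp11a1, the divisor, was also ordered much like the theca gene Cyp17a1. WT 6 had the highest ratio and the lowest Cyp11a1. The ratio was chosen after both genes had been seen and has no test.

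**Figure D4:**
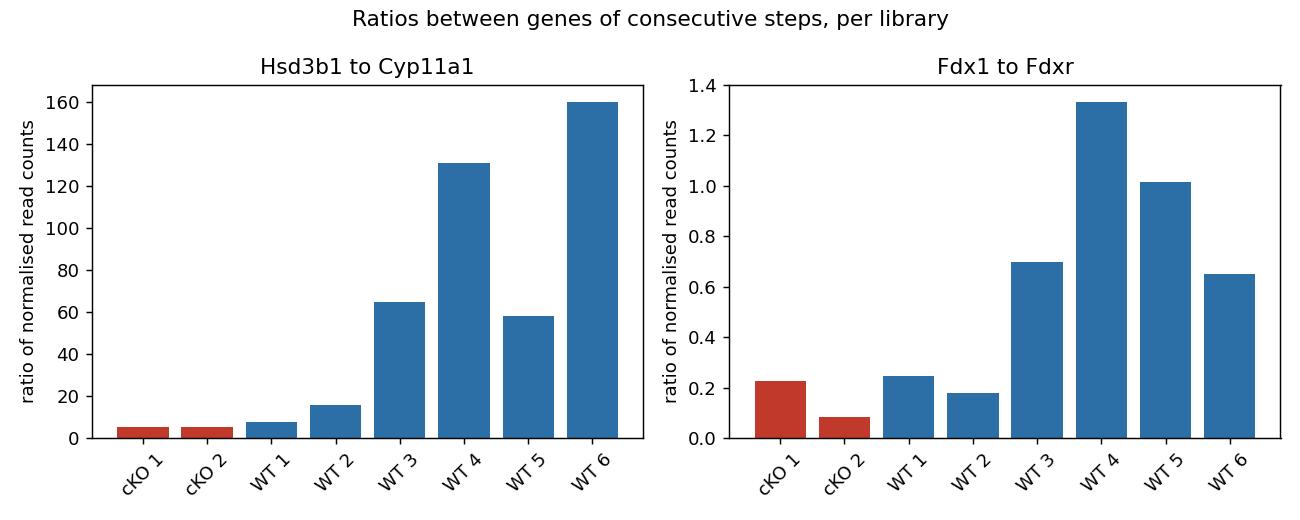
Ratios of normalised read counts per library, on linear axes from 0: Hsd3b1 to Cyp11a1 at left and Fdx1 to Fdxr at right, cKO in red and WT in blue. The Hsd3b1 to Cyp11a1 ratio is 5.52 and 5.48 in cKO and at least 7.88 in WT, and the Fdx1 to Fdxr ratio of WT 2 lies between the cKO bars.

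Sequence just upstream of the gene start is shown for Hsd3b1, Fdx1 and Fdxr, because Hsd3b1 and Fdx1 had the most negative fold changes of the genes tested and Fdxr the narrowest range within WT. The stretches come from RefSeq promoters (GRCm38.p6, the assembly called mm10), cut where an annotated exon begins, and are written 5′ to 3′ on the strand of the gene. RefSeq promoters were matched for 7 of the 9 genes; Star and Scarb1 were not matched. Capitals mark matches to the motifs searched on both strands. The positions are chr3:98859795-98860044, minus strand for Hsd3b1; chr9:51963603-51963852, minus strand for Fdx1; and chr11:115277102-115277219, minus strand for Fdxr.
Hsd3b1: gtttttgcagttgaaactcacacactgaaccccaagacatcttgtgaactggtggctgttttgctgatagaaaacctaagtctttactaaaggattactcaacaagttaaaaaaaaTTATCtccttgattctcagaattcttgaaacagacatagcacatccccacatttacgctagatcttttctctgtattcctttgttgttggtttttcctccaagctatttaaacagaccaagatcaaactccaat
Fdx1: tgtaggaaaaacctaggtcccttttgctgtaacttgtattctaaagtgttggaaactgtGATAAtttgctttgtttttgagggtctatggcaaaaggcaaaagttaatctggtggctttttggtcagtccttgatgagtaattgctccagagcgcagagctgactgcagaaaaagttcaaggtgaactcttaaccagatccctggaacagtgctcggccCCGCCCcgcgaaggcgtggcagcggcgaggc
Fdxr: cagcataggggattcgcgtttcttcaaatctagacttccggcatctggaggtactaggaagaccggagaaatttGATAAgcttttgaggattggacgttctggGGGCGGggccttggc
The motifs were the core of the HIF response element (ACGTG), the NR5A site (AAGGTCA) and the shorter AGGTCA it contains, the GATA site (GATAA), the CRE half-site (TGACG), the GC box (GGGCGG) and the TATA box (TATAAA). Among 8 windows of 250 bases before the start (Cyp11a1 has 2), counted over the whole window, ACGTG occurred in 0, beside 16.6% of 32817 mouse promoters. GATAA occurred in 3, those of Hsd3b1, Fdx1 and Fdxr, beside 22.6%. The GC box occurred in 5, those of Fdx1, Fdxr, Por, Akr1c18 and Srd5a1, beside 32.7%. AGGTCA and TGACG occurred once each, in the windows of Cyp11a1, beside 14.0% and 17.7%, and AAGGTCA and TATAAA in 0, beside 4.08% and 12.4%. Neither Cyp11a1 window lies just before its GENCODE start at 58006411. The promoter with TGACG is far upstream, at chr9:57997774-57998073, and that with AGGTCA is inside the gene, at chr9:58014702-58015001. Hsd3b1's window held 1 CpG, that of Fdx1 8 and that of Fdxr 13, beside a median of 6. These matches describe letters in a window and say nothing of binding.

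Por, the reductase that feeds electrons from NADPH to the P450 enzymes of the endoplasmic reticulum, lies on chromosome 5 from 135670033 to 135735326, plus strand. It had 29.4 and 19.1 CPM in cKO and 16.5, 36.1, 29.6, 48.6, 89.7 and 35.4 CPM in WT 1 to 6. WT 1 was below both cKO libraries and the other 5 above. Por had a log2 fold change of -0.80 ± 0.60, with an edgeR adjusted p of 0.592. It was -0.34 without WT 5, the highest library, 1.08 with detected genes as a covariate, and close to 0 in the libraries numbered 1 and 2.

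Akr1c18 and Srd5a1 inactivate progesterone, the first as the 20-alpha-hydroxysteroid dehydrogenase and the second as a 5-alpha-reductase. Akr1c18 lies on chromosome 13 from 4132615 to 4150654, minus strand, and was near the limit of detection. It had 0.51 and 1.37 CPM in cKO and 0, 1.64, 0, 4.59, 2.04 and 0 CPM in WT 1 to 6, from 2 reads in cKO and 34 in WT, and stayed below the filter for testing. The ratio of cKO to WT was 0.461, with an exact 95% counting interval of 0.0536 to 1.80, which covers counting error only. No read in a library allows up to 3 reads, which is 1.65, 1.17 and 0.655 CPM in WT 1, 3 and 6.

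Srd5a1 lies on chromosome 13 from 69573449 to 69611442, minus strand. It had 7.10 and 5.46 CPM in cKO, from 14 and 4 reads, and 7.14, 19.1, 22.6, 26.4, 18.8 and 8.51 CPM in WT 1 to 6. All WT libraries were above both cKO libraries, but WT 1 exceeded cKO 1 by 0.04 CPM only. Srd5a1 had a log2 fold change of -1.42 ± 0.76, with an edgeR adjusted p of 0.454. Leaving out single libraries gave -1.70 to -1.23, and limma on log2(TPM + 1) gave -0.31. Srd5a1 lies within Nsun2 on the other strand and overlaps Gm17108, which shares 17.1% of its 31-base words, and reads carry no strand, so part of its count can belong to these genes. Cyp11a1, Scarb1 and Por overlap only noncoding genes and a pseudogene.

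Levels of different genes were compared on the deposited TPM scale, which allows for length. In WT the order was Hsd3b1 at 2877 ± 2708 TPM (SD, n = 6), Fdx1 at 181 ± 110, Fdxr at 153 ± 43.0, Scarb1 at 87.9 ± 35.2, Cyp11a1 at 33.4 ± 24.9, Por at 15.6 ± 8.77, Srd5a1 at 7.40 ± 1.76, Star at 2.92 ± 2.24 and Akr1c18 at 1.17 ± 1.60. Of these neighbours only Srd5a1 and Star had ranges of mean ± SD that did not meet. In cKO Fdxr was first at 257 ± 16.7 TPM (SD, n = 2), followed by Hsd3b1 at 225 ± 118 and Fdx1 at 54.1 ± 48.0. Hsd3b1 made up 39.6% and 28.4% of the summed TPM of the 9 genes in cKO and 30.9%, 52.1%, 88.8%, 91.5%, 88.0% and 75.0% in WT 1 to 6. WT 1 was like the cKO libraries, and WT 3 to 6 were dominated by Hsd3b1. The order of the means depended on the lengths used. With reads per kilobase of the longest coding transcript in place of TPM, the WT order began with Hsd3b1, Fdxr, Scarb1 and Fdx1. In cKO Hsd3b1 was then first by mean at 221, ahead of Fdxr at 153, Scarb1 at 44.9, Cyp11a1 at 35.0 and Fdx1 at 18.4. Within each cKO library the first gene was the same on both scales, Hsd3b1 in cKO 1 and Fdxr in cKO 2. In cKO 1 Hsd3b1 and Fdxr had 308 and 269 TPM, and 332 and 187 reads per kilobase. In cKO 2 they had 141 and 245 TPM, and 109 and 120 reads per kilobase. The deposited lengths fell below the shortest annotated transcript in at least 1 library for all of the 9 genes but Star and Cyp11a1, for example 305 to 439 for Fdx1 (shortest 596), 488 to 501 for Fdxr (544) and 213 to 262 for Scarb1 (338), so these TPM levels are uncertain.

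**Figure D5:**
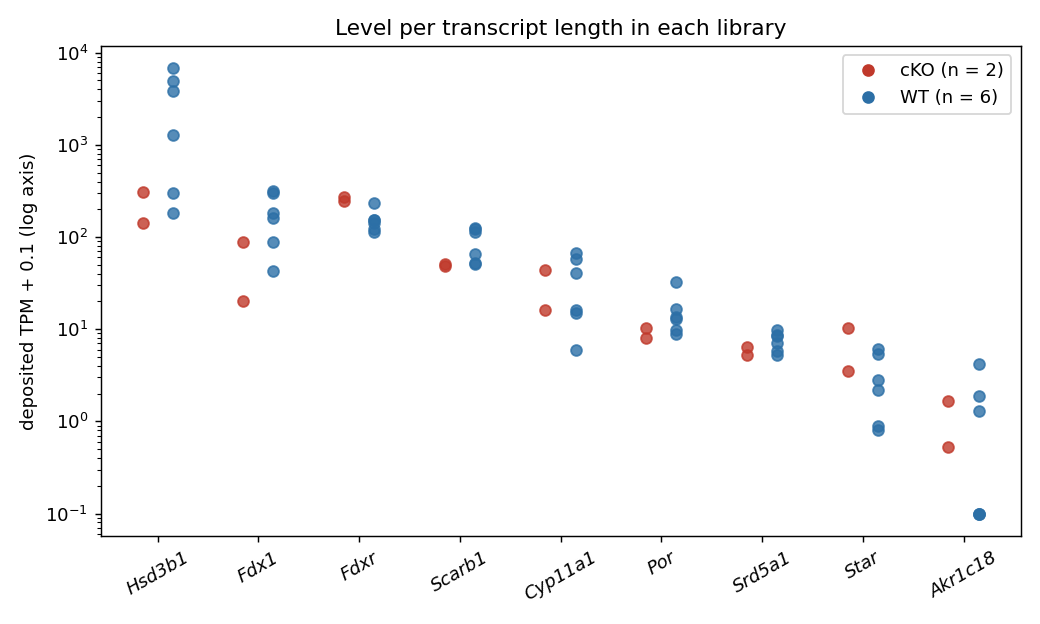
Deposited TPM plus 0.1 on a log axis for the 9 genes, in order of their WT mean, 1 point per library, cKO in red and WT in blue. Hsd3b1 reaches 6787 TPM in WT and lies at 308 and 141 TPM in cKO, while Star stays at or below 10.1 TPM.

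The genes whose pattern over the 8 libraries was nearest to a gene were found by the mean absolute difference of log2(CPM + 1) after centring each gene on its own mean, with no test. Near to Star were Rhoq (0.241) and Ghdc (0.277), and Cyp11a1 was at 0.462. Near to Cyp11a1 were Ifi27l2a (0.301) and Nfib (0.332). Hsd3b1 was nearest to Mro (0.459), Gsta4 (0.485) and Inha (0.488), which encodes the inhibin alpha subunit of granulosa cells, while Fdx1, the nearest of the other 8 genes, was at 0.987.

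Other genes of cholesterol delivery had lower values in cKO in 14 of 18 tested, 4 of them at an unadjusted p under 0.05 and 0 higher at that level, and their median was -0.64 on the log2 scale. No gene passed edgeR's adjusted threshold in this list or in those that follow. With no filter on low counts, where edgeR called 478 genes in all, Dbi (adjusted p 0.00279), Vdac1 (0.0383), Hsd17b1 (0.00646), Me1 (0.00288) and Fshr (0.000533) passed it. That fit was looked up only for genes named from these lists, and not for Akr1c14, so further genes of the lists may pass there. Dbi, a ligand of the mitochondrial cholesterol transport complex, had 74.1 and 10.9 CPM in cKO and 62.1 to 453 CPM, median 255, in WT, which is -2.61 ± 0.86 on the log2 scale. Vdac1, the outer membrane channel, had 37.0 and 38.2 CPM in cKO and 40.1 to 226 CPM in WT, which is -1.91 ± 0.65 on that scale. The Vdac1 groups did not overlap and those of Dbi did. The edgeR adjusted p was 0.369 for both, and DESeq2 gave 0.0225 for Dbi and 0.0616 for Vdac1. With detected genes as a covariate Dbi was -0.31 and Vdac1 -0.89, and in the libraries numbered 1 and 2 they were -1.76 and -0.60.

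Of other steroid enzymes, 15 were tested, 10 lower and 5 higher, of which 4 lower and 0 higher were at an unadjusted p under 0.05, and the median was -0.83. Hsd17b1, which reduces estrone to estradiol and is also in the granulosa marker list, had 226 and 105 CPM in cKO and 213 to 3029 CPM, median 1202, in WT, or -3.03 ± 1.02 on the log2 scale (edgeR adjusted p 0.369, DESeq2 adjusted p 0.0131). It was -0.45 with the covariate and -0.68 in the libraries numbered 1 and 2. Akr1c14, a 3-alpha-hydroxysteroid dehydrogenase that acts after 5-alpha-reduction, had 1 read in cKO and 864 in WT. It had 0.51 and 0 CPM in cKO and 8.79, 1.09, 23.4, 106.6, 37.8 and 38.4 CPM in WT 1 to 6. The ratio of cKO to WT was 0.00907, with an exact 95% counting interval of 0.000229 to 0.0507. This interval pools the reads of each group and covers counting error only, while the WT libraries spanned 97.5-fold. For Akr1c14 the edgeR adjusted p was 0.369 and the DESeq2 adjusted p 0.0131. Of the alternative fits, only DESeq2 is given for this gene. All WT values were above both cKO values, with WT 2, from 4 reads, close to them. No read in cKO 2 allows up to 3 reads, which is 4.10 CPM, so cKO 2 cannot be placed below WT 2. Of the other genes listed as paralogs of Akr1c18, Akr1cl had 1349 and 533 CPM in cKO and 852 to 5004 CPM in WT (log2 fold change -1.55 ± 0.77, edgeR adjusted p 0.431). Akr1e1, which is outside the Akr1c group, had a log2 fold change of -1.49 ± 0.63 (edgeR adjusted p 0.381). Akr1c13 had 0 reads in cKO and 32 in WT, and Akr1c19 had 2 and 27.

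The electron donors, which supply NADPH or pass on electrons, had 10 of 11 values lower, 5 at an unadjusted p under 0.05 and 0 higher at that level, with a median of -1.03. Me1, the malic enzyme that makes NADPH, had a log2 fold change of -2.59 ± 0.94. Pgrmc1, a heme protein that binds P450 enzymes, had one of -1.73 ± 0.65. Both had an edgeR adjusted p of 0.369, and the DESeq2 adjusted p was 0.0601 for Me1 and 0.104 for Pgrmc1. With the covariate the log2 fold changes were -0.66 and 0.05, and in the libraries numbered 1 and 2 -0.56 and -0.62. The regulators of steroid synthesis had 19 of 22 lower, 6 at an unadjusted p under 0.05 and 0 higher at that level, with a median of -1.06. Fshr, the receptor of follicle-stimulating hormone and also a granulosa marker, had 10.7 and 6.83 CPM in cKO and 40.7 to 129 CPM in WT, with no overlap, and a log2 fold change of -3.09 ± 0.67 (edgeR adjusted p 0.369, DESeq2 adjusted p 0.00178). Prkacb, a catalytic subunit of protein kinase A, had 14.7 and 15.03 CPM in cKO and 23.8 to 65.0 CPM in WT, with no overlap, and a log2 fold change of -1.65 ± 0.58 (edgeR adjusted p 0.369, DESeq2 adjusted p 0.109). With the covariate Fshr was -1.53 and Prkacb -0.89, and in the libraries numbered 1 and 2 they were -2.19 and -0.62. Over all genes tested 52.7% were lower in cKO and the median was -0.08. At an unadjusted p under 0.05, 8.89% of all genes were lower and 3.4% higher. The 14 granulosa markers, Hsd17b1 and Fshr among them, had 8 lower and 1 higher at that level, with a median of -1.95. In the libraries numbered 1 and 2 the medians were -0.34 for cholesterol delivery and 0.25 for the steroid enzymes. For the electron donors and the regulators they were -0.36 and -0.23. DESeq2 called 1 of 12 genes of cholesterol delivery, 3 of 10 steroid enzymes, 1 of 10 electron donors and 1 of 18 regulators. All of these were lower, beside 3.53% of all genes called as lower.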

How the data were processed

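Granulosa cell RNA of 8 libraries (2 cKO, 6 WT) was measured. For each library the authors deposited a table of estimated counts, TPM values and lengths. Salmon, HISAT2 and mm10 are named in the submitters' processing notes, and no source used here gives the annotation. The 1548 rows lacking a gene name, with 0.435% to 0.739% of reads, entered neither library sizes nor tests. Estimated counts from the deposited tables were rounded, filtered with filterByExpr (minimum count 10, minimum total 15; 15102 genes), scaled by TMM and compared in R 4.3.3 with edgeR 4.0.16 (glmQLFit and glmQLFTest, no term besides group). P-values were adjusted by Benjamini-Hochberg over all genes tested (threshold 0.05), and SE was derived from the F statistic. Over all genes the log2 fold change had a median of -0.08 under TMM scaling and 0.05 under DESeq2's size factors. Shares of reads on 7 marker lists were compared by exact permutation over 28 splits, with a Benjamini-Hochberg adjusted p of 0.643 for each. In simulated counts with 200 genes changed, the fit called 13.8% of 4-fold and 57.7% of 16-fold changes, with 1 false call. Most changes of 4-fold were thus missed there.

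Alternatives were DESeq2 1.42.0, DESeq2's size factors in edgeR, no TMM factor, 2 other filters, limma 3.58.1 (voom with quality weights, and log2(TPM + 1) of the deposited TPM), leaving out each library, a replicate block, an effective length offset, a covariate for detected genes, mitochondrial genome genes removed, and the libraries numbered 1 and 2 alone, known from earlier results to stand apart from WT 3 to 6. Reads per kilobase, for the order of levels, was added after seeing the data.

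Named were the 9 genes, Hif1a, from each related list the 2 genes of smallest p, the 3 nearest genes of Star, Cyp11a1 and Hsd3b1, and paralogs with at least 10 reads. A result under this rule is not reported here. Where the text gives the CPM of another gene it says that the choice followed the values. The members, lists and alternatives were chosen with earlier results of these data known. Libraries were all distinct beyond sampling noise. Reads carry no molecular identifiers, so intervals and floors cover counting error only.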

Additional observations from a re-analysis of the deposited data

Results flagged for a closer look

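In 6 of 48 sets of the 6 WT values, the highest library lay further from the others than Dixon's 95% limit allows. For independent, normally distributed values chance would give about 1 set in 20, but these sets share libraries, and the rate here was not tested. Fdxr reached 233.9 TPM in WT 1, against 113.6 to 154.0 TPM in the other 5, and Por reached 32.6 TPM in WT 5, against at most 16.3 TPM in the others. Akr1c14 reached 106.6 CPM in WT 4, and Akr1c13 reached 6.11 CPM in WT 6. The oocyte marker share reached 0.189% of reads in WT 6, the library with the lowest Star and Cyp11a1, against at most 0.0470% elsewhere in WT. The endothelial marker share reached 0.0493% in WT 1.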

How the results depend on the processing

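The direction of the fold change held under all 20 alternatives for Hsd3b1 (-4.67 to -0.14) and Srd5a1 (-1.70 to -0.31), and turned for the other 6 genes tested. With detected genes as a covariate, whose values are lower in both cKO libraries than in all WT libraries, Cyp11a1 was 2.28, Star 2.02, Fdx1 1.01, Scarb1 0.26, Por 1.08, Pgrmc1 0.053, Akr1cl 0.18 and the median of the 8 genes 0.92, with 2 lower. Without cKO 1, Star was -0.083, Cyp11a1 -0.97, Fdxr -0.0096, the stroma share -0.0218 and the blood share -0.0104 percentage points. Cyp11a1 was also -0.0067 without WT 1, -0.035 without WT 6 and -0.045 with the effective length offset. Over single libraries left out, the highest values were 0.75 for Star, 0.60 for Cyp11a1 and 0.62 for Fdxr. The cause of these changes was not tested. Leaving out single libraries gave 0 to 4 of the genes at an unadjusted p under 0.05 (0 without cKO 2, 4 without WT 1), 5 to 9 lower (9 without cKO 1, where Akr1c18 passed the filter), medians of -1.22 to -0.51, 0 to 1 genes called, 865 to 3015 at an unadjusted p under 0.05 (without cKO 2 and without WT 1), and shares of -0.0218 to 0.102 (stroma), 0.00842 to 0.0165 (endothelial; exact permutation p = 0.0476 without WT 1) and -0.0104 to 0.0248 (blood) percentage points. Genes called were 478 with no filter, 274 with DESeq2, 5 with limma on log2(TPM + 1) and 1 with the replicate block; with no filter 1 of these 9 genes, Hsd3b1, was called. Genes at an unadjusted p under 0.05 were 3486 with no filter, 2209 with DESeq2, 2486 with voom and 2098 with limma on log2(TPM + 1). They were 179 with the block, 490 with the covariate and 292 in the libraries numbered 1 and 2. Of the 8 genes, 2 were under that level with no filter, DESeq2, voom and limma on log2(TPM + 1), and 0 with the block, the covariate and the libraries numbered 1 and 2. Pairing by replicate number was looked for in the r of deviations from group means, which was -0.296 and -0.166 for numbers 1 and 2. The deviations of the 2 cKO libraries mirror each other, so this check cannot exclude pairing. Under the replicate block Hsd3b1 was -0.30 and the median of the 8 genes -0.071. Medians of the related lists moved to -0.99 for cholesterol delivery without cKO 1, -0.26 for electron donors with the covariate, and, with the replicate block, to 0.22 for steroid enzymes and -0.19 for regulators. Depth limits Akr1c18, Star and Srd5a1, with 36, 311 and 390 reads in all.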

Other observations

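Cyb5a, cytochrome b5, which assists microsomal P450 enzymes and was picked after its values were seen, had 619 and 178 CPM in cKO and 233, 1299.5, 2302, 7953, 5657 and 3004 CPM in WT 1 to 6. WT 1 lay between the cKO libraries, and WT 4, the library with the most Hsd3b1, was highest. Amh, a hormone of small growing follicles that was picked in the same way, had 610 and 224 CPM in cKO and 767, 1126, 2.34, 49.8, 29.2 and 176 CPM in WT 1 to 6. WT 1 and WT 2, the WT libraries with the least Hsd3b1, were the highest in Amh. Lhcgr, the receptor of luteinising hormone, likewise picked, had 16.2 and 10.9 CPM in cKO and 14.3, 2.73, 127, 154, 106.4 and 37.8 CPM in WT 1 to 6, again with WT 1 and WT 2 lowest in WT.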
